A study of Mus musculus with 4 samples.

Results

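UDP-glucuronosyltransferases (UGTs) are membrane enzymes of the endoplasmic reticulum that attach glucuronic acid to bilirubin, bile acids, steroid and thyroid hormones, drugs and dietary chemicals. The resulting glucuronides are more water-soluble and leave the liver in bile or blood. In the mouse the Ugt1a enzymes come from 1 locus in which each isoform has its own promoter and first exon, joined to a common set of downstream exons, whereas the Ugt2 enzymes come from a cluster of separate genes.

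The family members described here are 10 listed genes, 4 of the Ugt1a locus and 6 of the Ugt2 cluster, out of 30439 genes or transcripts on the array. They were selected on earlier results of these arrays, so their genotype differences are given as a description and without a test. A member was found where a gene probe carried its symbol in the scanner files, which held for 8 of the 10: Ugt1a10, Ugt1a6a, Ugt2b1, Ugt2b5, Ugt2b34, Ugt2b35, Ugt2b36 and Ugt2a3. No probe carried the symbol of Ugt1a1, the bilirubin enzyme, or of Ugt1a9. Another 12 UGT genes were looked for, and 7 of them had a probe.

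Liver RNA was hybridized to 4 one-color Agilent arrays, with 1 array in each of 4 groups, so that no value has a replicate and the number of arrays limits the precision. Drp1LiKO mice (Alb-Cre Tg/+ Drp1 flox/flox) carry Cre under the albumin promoter, which deletes the mitochondrial fission gene Dnm1l (Drp1) in hepatocytes, and Cont mice are Drp1 flox/flox littermates without Cre. All were male C57BL/6J mice on a high-fat diet for 24 weeks, and the labels give no age. In each genotype 1 array is labelled as refed, which the series text gives as 4 h of feeding after a fast of 17 h, while the study's methods give a slightly shorter fast. The labels of the other 2 arrays name no feeding state, and these are called fasted here on the basis of the study's description of the experiment. The series design text describes refeeding for all mice that were fasted and lists no group left unfed, and the labels say that the raw data of these 2 arrays were shared with earlier submissions. Whole liver holds several cell types, and a change in their numbers and a change in RNA per cell cannot be told apart.

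Signals are given as multiples of the 75th percentile of their array, which was 461 units for fasted Cont, 722 for fasted Drp1LiKO, 357 for refed Cont and 526 for refed Drp1LiKO. A probe counts as measured on an array where the scanner software marks it as well above background, as it did for 51.4%, 58.2%, 48.7% and 55.4% of the gene spots in the same order. No gene spot was saturated. The error given with a log2 difference is the measurement SE of the scanner's error model, which leaves out differences between animals.

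Dnm1l, the deleted gene, gave 2.03 times the 75th percentile in fasted Cont, 1.75 in fasted Drp1LiKO, 1.58 in refed Cont and 1.46 in refed Drp1LiKO. The Drp1LiKO arrays were the lower ones, by log2 differences of -0.21 ± 0.20 (SE) fasted and -0.12 ± 0.20 refed, about 1 SE or less. Whether this probe lies within the deleted exons is not known, so it does not check the genotype labels.

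Of the Ugt1a probes, the one that separated the arrays most was an Ugt1a10 probe that starts at transcript base 794. It gave 0.235 times the 75th percentile in fasted Cont, 3.04 in fasted Drp1LiKO, 0.165 in refed Cont and 0.753 in refed Drp1LiKO, and was well above background on all 4 arrays. Both Drp1LiKO arrays were above both Cont arrays, and within each genotype the refed array was the lower one. Drp1LiKO exceeded Cont by 3.69 ± 0.22 (log2, 12.9-fold) in the fasted state and by 2.19 ± 0.26 (4.57-fold) in the refed state. With normexp background correction these were 3.10 and 1.38. The median over both Ugt1a10 probes, 3.05 and 0.60, takes in the probe at base 734, which was near background on fasted Cont and on both refed arrays, and so says little about the size of the difference.

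The probes that bear on this value are shown as 60-base sequences from the scanner files, all reading the plus strand of chromosome 1 in the mm9 build. The first covers chr1:89952720-89952779, the second chr1:89952780-89952839, directly beside it, and the third chr1:90004249-90004308.
Ugt1a10 probe 734: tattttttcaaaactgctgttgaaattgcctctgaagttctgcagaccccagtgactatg
Ugt1a10 probe 794: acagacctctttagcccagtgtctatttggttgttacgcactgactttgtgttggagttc
Ugt1a6b probe 855: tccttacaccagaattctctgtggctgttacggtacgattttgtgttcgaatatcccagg

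The files list only a transcript of Ugt1a10 for the probe at base 734, but transcripts of both Ugt1a10 and Ugt1a9 for the probe at base 794. The signal of the second probe may therefore come from either gene, and its values are those of the Ugt1a10 and Ugt1a9 transcripts together. Values given for Ugt1a10 below are those of this probe, unless another probe or both probes are named. The probe at base 734 was well above background on 1 array, fasted Drp1LiKO, at 0.0676 times the 75th percentile. Set against the lowest well-above-background signal of the fasted Cont array, this is at least 1.05-fold higher. Such a bound takes the bright signal over the higher of the dim probe's own signal and that lowest signal. Neighbouring 60-base stretches thus gave a measured genotype difference in both feeding states at one probe and only a bound near 1 at the other. A further probe downstream of these, at chr1:89952879-89952938 under the name LOC100048662, stayed near background on all 4 arrays.

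Ugt1a6b, which is not a listed member, had a probe 111 kb upstream of its brighter 3′ probe that lists only its own transcript. This probe gave 1.52 times the 75th percentile in fasted Cont, 2.60 in fasted Drp1LiKO, 1.35 in refed Cont and 1.97 in refed Drp1LiKO. The order of the arrays was the same as for the Ugt1a10 probe. The genotype difference was 0.77 ± 0.20 (1.71-fold) fasted and 0.54 ± 0.21 (1.45-fold) refed, under the 2-fold threshold in both states but above 2 SE.

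At the 3′ end of the locus, where the isoforms share their exons, a probe named Ugt1a6b lists transcripts of 4 genes, Ugt1a6b, Ugt1a6a, Ugt1a7c and Ugt1a10. Its signal was 142 times the 75th percentile in fasted Cont, 124 in fasted Drp1LiKO, 174 in refed Cont and 122 in refed Drp1LiKO. Here the Drp1LiKO arrays were the lower ones. The genotype difference was -0.20 ± 0.20 fasted, which turned to 0.10 under quantile normalization, and -0.51 ± 0.20 refed. The probe of the member Ugt1a6a, at chr1:90116514-90116573 and so downstream of that probe, lists transcripts of Ugt1a6a, Ugt1a7c, Ugt1a10 and Ugt1a1. It was measured on the fasted arrays only, at 0.0760 times the 75th percentile in Cont and 0.0721 in Drp1LiKO, a difference of -0.08 ± 0.39. This is the 1 probe for which the files list a Ugt1a1 transcript, together with those of other isoforms. Whether the brighter probe also reads Ugt1a1 is not known, and no level of Ugt1a1 can be given.

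**Figure D1:**
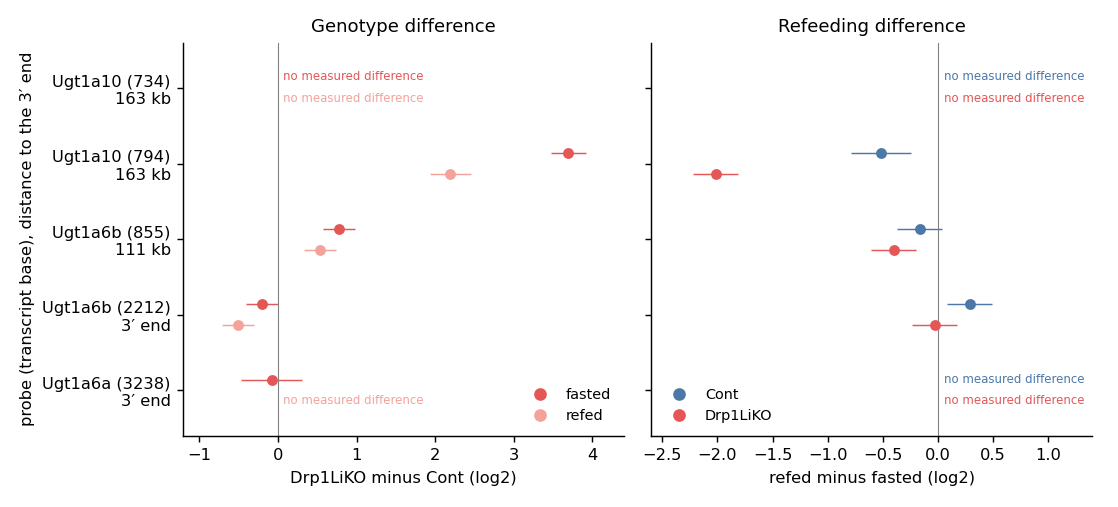
Log2 differences (x axes) of the named Ugt1a probes ordered along the locus, Drp1LiKO minus Cont in each feeding state (left) and refed minus fasted in each genotype (right), with bars of 1 measurement SE and 1 array per group. The Ugt1a10 probe at base 794 is at 3.69 and 2.19 on the left, while the shared-end Ugt1a6b probe at base 2212 is at -0.20 (0.10 under quantile normalization) and -0.51.

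The Ugt1a members have separate promoters, read here from RefSeq in build GRCm38.p6 as windows of 300 bases, from 250 before to 50 after the gene start. On the plus strand of chromosome 1 the windows are chr1:88055161-88055460 for Ugt1a10, chr1:88070529-88070828 for Ugt1a9, chr1:88134559-88134858 for Ugt1a6a and chr1:88211709-88212008 for Ugt1a1. Of 5 motifs searched on both strands, 4 are described here: AGGTCA, a half-site of several nuclear receptors including CAR, PXR and PPARalpha, GCGTG, the core of the AhR site, TGACNNNGC, the core of the NRF2 site, and TTGCATCA, known for ATF4. AGGTCA was in 7 of the 20 UGT promoters and in 16.3% of all promoters. GCGTG was in 3 of the 20 and in 32.4% of all. Neither TGACNNNGC (12.4% of all promoters) nor TTGCATCA (0.895%) was in any UGT promoter. None of the 4 described motifs was in the Ugt1a10 window, while AGGTCA was in the Ugt1a9 window. The motif not described was in 6 of the 20, among them Ugt1a10, and in 7.10% of all. The Ugt1a10 and Ugt1a9 windows share an unbroken run of 32 bases. These matches describe letters in a short window and say nothing of what binds there.

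Of the 6 Ugt2 members, which conjugate steroids, bile acids and many drugs, each was well above background on all 4 arrays. Ugt2b1 gave 5.39 times the 75th percentile in fasted Cont, 4.20 in fasted Drp1LiKO, 5.11 in refed Cont and 4.65 in refed Drp1LiKO. Ugt2b34 gave 35.3, 26.3, 41.7 and 36.1 in the same order. Ugt2a3 gave 21.4, 14.6, 24.6 and 17.8. For these genes the Drp1LiKO array was below the Cont array of its feeding state. In the refed state the difference was about 1 SE or less for Ugt2b1 (-0.14 ± 0.20) and Ugt2b34 (-0.21 ± 0.20). For Ugt2a3 it was above 2 SE (-0.46 ± 0.20). Under quantile normalization the refed values of Ugt2b1, Ugt2b34 and Ugt2a3 were -0.06, -0.005 and -0.30.

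Ugt2b5 gave 48.7 times the 75th percentile in fasted Cont, 48.3 in fasted Drp1LiKO, 54.9 in refed Cont and 44.8 in refed Drp1LiKO. Ugt2b36, whose probe also lists a transcript of Ugt2b37, gave 42.6, 42.5, 45.2 and 36.1. Both were level between the fasted arrays, but higher in Drp1LiKO by 0.34 and 0.33 under quantile normalization. Between the refed arrays Drp1LiKO was lower by less than 2 SE, at -0.29 ± 0.20 and -0.32 ± 0.20. These refed values were -0.11 and -0.13 under quantile normalization. Ugt2b35 gave 4.90, 5.57, 4.79 and 5.99 with its brighter probe and was the Ugt2 member with the higher value in Drp1LiKO in both states. Its dimmer probe gave 0.690, 0.718, 0.777 and 0.911, with genotype differences of 0.06 and 0.23.

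**Figure D2:**
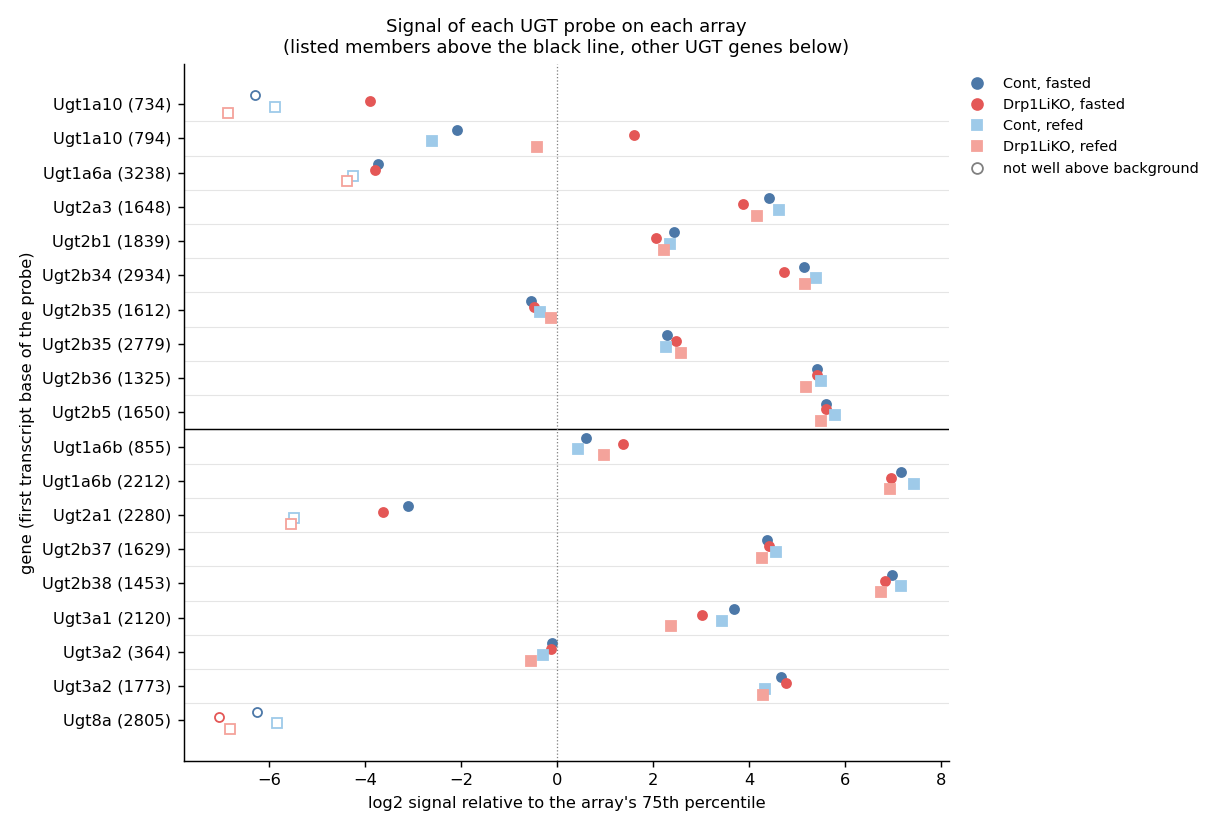
Log2 signal relative to the array's 75th percentile (x axis) for each UGT probe (y axis, with the first transcript base of the probe) on each of the 4 arrays, circles for fasted and squares for refed, open where the probe was not well above background. The 4 values lie close together for the Ugt2 members, while the Ugt1a10 probe at base 794 spreads from 0.165 times the 75th percentile in refed Cont to 3.04 in fasted Drp1LiKO.

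In the fasted genotype difference, 1 of the 2 Ugt1a members with a probe (Ugt1a10, probe at base 794) was at least 2-fold higher in Drp1LiKO. The same held for 8.06% of the 18040 genes that could be called and for 0 of the 6 Ugt2 members. That Ugt1a10 probe also lists a transcript of Ugt1a9, so the call may belong to either gene. No member was at least 2-fold lower, compared with 5.19% of genes. These shares depend on the processing, since the counts of 1454 higher and 936 lower were 358 and 569 with normexp, and 779 and 909 with signals near background set to their bounds, which was tried after seeing the data. In the refed state 1404 and 1105 were 363 and 709, and 703 and 1105. The Ugt2 members lay between -0.56 ± 0.20 for Ugt2a3 and 0.18 ± 0.20 for Ugt2b35. Their median was -0.19, where the median of 15469 genes measured on both arrays was -0.12, and it turned to 0.09 under quantile normalization. With that scaling Ugt2b5 went from -0.01 to 0.34 and Ugt2b36 from -0.00 to 0.33. Apart from Ugt2a3 and Ugt2b34, each Ugt2 member differed by less than 2 SE without that scaling. With it Ugt2a3 was at -0.34 and Ugt2b34 at -0.14, which is also less than 2 of the stated SE.

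In the refed genotype difference, Ugt1a10 (probe at base 794) was the member at least 2-fold higher in Drp1LiKO, beside 8.05% of 17446 genes, and 0 of the 6 Ugt2 members were. None of the members was at least 2-fold lower, beside 6.33% of genes. The Ugt2 members ran from -0.46 ± 0.20 for Ugt2a3 to 0.32 ± 0.20 for Ugt2b35, with Ugt2b36 at -0.32, Ugt2b5 at -0.29, Ugt2b34 at -0.21 and Ugt2b1 at -0.14. Their median was -0.25, against -0.08 over 14672 genes measured on both arrays, and -0.08 under quantile normalization. Since the members were selected on these contrasts, the shares of all genes called are given for reference only.

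**Figure D3:**
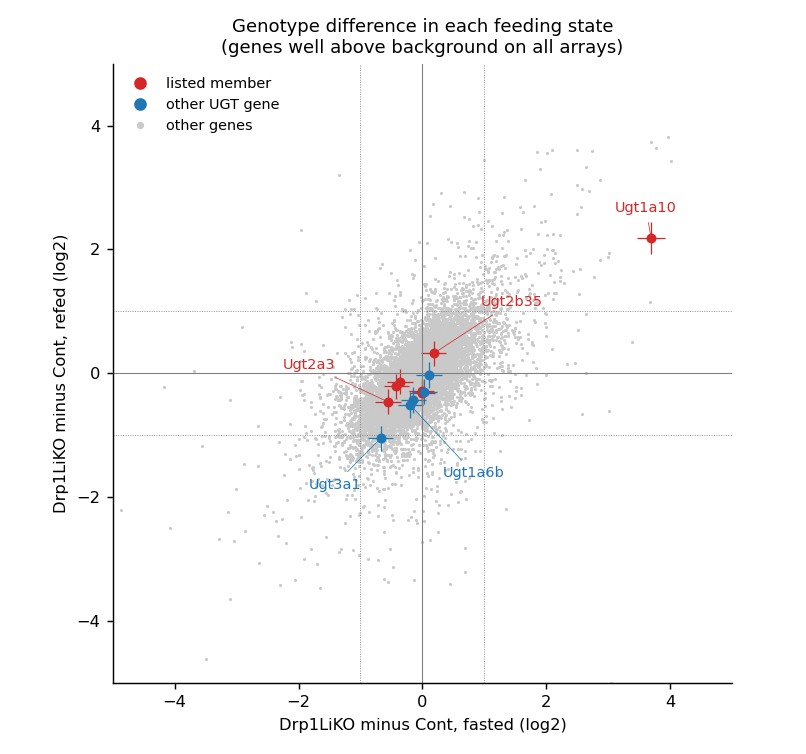
Drp1LiKO minus Cont (log2) in the fasted state (x axis) and the refed state (y axis) for genes well above background on all 4 arrays (grey; 6 genes lie beyond the axes), with listed UGT members in red, other UGT genes in blue, bars of 1 measurement SE and dotted lines at 2-fold. Ugt1a10 (probe at base 794, which also lists Ugt1a9) is at 3.69 and 2.19, and the Ugt2 members lie within the cloud of other genes.

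Among the other UGT genes, Ugt3a1, an enzyme that uses N-acetylglucosamine in place of glucuronic acid, gave 12.9 times the 75th percentile in fasted Cont, 8.10 in fasted Drp1LiKO, 10.8 in refed Cont and 5.21 in refed Drp1LiKO. Its genotype difference was -0.68 ± 0.20 fasted and -1.05 ± 0.20 (2.07-fold lower) refed, which made it the 1 UGT gene at least 2-fold lower in Drp1LiKO. That call rests on a value near the threshold, and under quantile normalization the refed value was -0.89. Ugt3a2 differed by 0.11 ± 0.20 and -0.03 ± 0.20, or by 0.40 and 0.12 under quantile normalization. Ugt2b37 was at 0.03 and -0.30 and Ugt2b38 at -0.14 and -0.43, and in the fasted state these were 0.29 and 0.14 under quantile normalization. Both lie on chromosome 5 with Ugt2b5 and Ugt2b36. The promoters of Ugt2b37 and Ugt2b38 share the longest unbroken run of the 190 pairs of UGT promoters, 82 bases. Ugt8a, known for galactosylceramide synthesis in myelin, stayed near background on all 4 arrays.

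Between the refed and fasted arrays of Cont, 0 of the 6 Ugt2 members and 0 of the 2 Ugt1a members differed by 2-fold, where 5.83% of 16437 genes were at least 2-fold lower and 4.47% at least 2-fold higher. In Drp1LiKO, Ugt1a10 was at -2.02 ± 0.20 (4.04-fold lower when refed), beside 7.15% of 18329 genes at least 2-fold lower. No member was at least 2-fold higher, beside 5.61% of genes. In Cont the Ugt1a10 difference was -0.51 ± 0.27, or -0.10 with normexp background correction. For the Ugt2 members the refeeding difference ran from -0.08 (Ugt2b1) to 0.24 (Ugt2b34) in Cont and from -0.23 (Ugt2b36) to 0.45 (Ugt2b34) in Drp1LiKO. The median was 0.13 in each genotype, where all genes measured on both arrays had 0.11 in Cont and 0.10 in Drp1LiKO, and it turned to -0.08 and -0.03 under quantile normalization. With that scaling Ugt2b1 was at -0.15 and Ugt2b34 at -0.01 in Cont, and Ugt2b36 was at -0.605 and Ugt2b34 at 0.13 in Drp1LiKO.

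Ugt2a1, whose probe also lists a transcript of Ugt2a2 and whose enzyme is best known from olfactory tissue, was measured on the fasted arrays only. It gave 0.117 times the 75th percentile in fasted Cont and 0.0806 in fasted Drp1LiKO. The fasted signal was at least 1.37-fold higher than the refed one in Cont and at least 1.88-fold higher in Drp1LiKO. By log2 differences of -2.39 and -1.91 from signals near background, Ugt2a1 counted as called lower on the refed array in both genotypes, although both bounds are under 2-fold. The Ugt1a6a probe was likewise measured on the fasted arrays only, with a fasted signal at least 1.48-fold higher in Drp1LiKO and no fold to give in Cont.

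**Figure D4:**
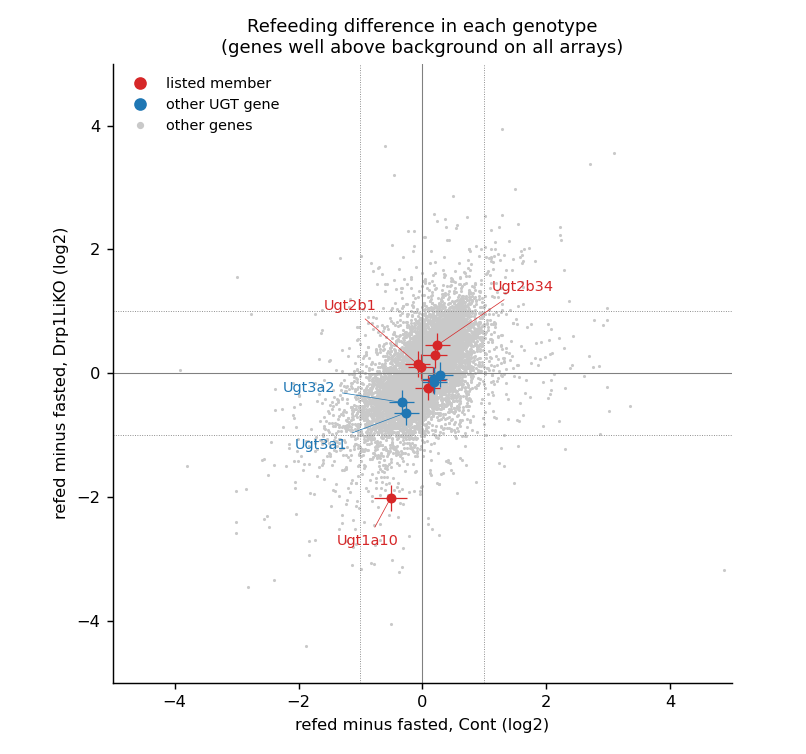
Refed minus fasted (log2) in Cont (x axis) and Drp1LiKO (y axis) for genes well above background on all 4 arrays (grey), with listed UGT members in red, other UGT genes in blue, bars of 1 measurement SE and dotted lines at 2-fold. Ugt1a10 (probe at base 794, which also lists Ugt1a9) is at -0.51 in Cont and -2.02 in Drp1LiKO, and the other UGT genes lie within 2-fold on both axes.

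The refeeding difference over both genotypes is the one comparison that was tested, with a limma model of genotype and refeeding that leaves 1 residual degree of freedom among the 4 arrays. It called 0 of 16744 genes (0.00%) at an adjusted p under 0.05, while 4414 had an unadjusted p under 0.05. All 14 UGT genes tested were among the uncalled, with adjusted p from 0.169 to 0.916, and 3 of them had an unadjusted p under 0.05: Ugt1a10, Ugt1a6a and Ugt2a1. The estimate for Ugt1a10 was -1.26 (adjusted p = 0.190, limma), lower in both genotypes. Because the members were selected on earlier results of the same 4 arrays, these p values are not independent of that choice. The probes of Ugt1a6a and Ugt2a1 were near background on both refed arrays, so their estimates set a signal against background and are not given as sizes of a difference. With so few arrays an adjusted p above the threshold does not show that a gene was unaffected by refeeding.

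The genotype difference of the Ugt1a10 probe at base 794 was smaller in the refed than in the fasted state. The difference of differences was -1.50 ± 0.34 on the log2 scale. Of 14447 genes measured on all 4 arrays, 2.38% were as low as -1 and 1.87% as high as 1. Among the 12 UGT genes measured on all 4 arrays the others lay between -0.38 (Ugt3a1) and 0.23 (Ugt2b1). No test of this difference is possible with 1 array per group.

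Profiles over the 4 arrays were set against that of the Ugt1a10 probe at base 794, by Euclidean distance between centered log2 values among 14446 genes. The 5 nearest genes were Cdkn1a, Cib3, Chka, Ddit4 and Ly6d. Their distances were 0.81, 0.98, 1.09, 1.22 and 1.23. Cdkn1a, an inhibitor of cyclin-dependent kinases, was 7.98-fold higher in Drp1LiKO fasted and 3.69-fold refed. On the log2 scale Ddit4, an inhibitor of mTORC1, was higher by 3.39 and 0.50. Ly6d was higher by 3.69 and 3.74, Cib3 by 2.49 and 2.57, and Chka, a choline kinase, by 2.24 and 1.67. The nearest UGT gene was Ugt2b35 at a distance of 3.10, in place 2893.

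Enzymes and carriers around glucuronidation were read from gene lists, each described by its counts and its median. For reference, the median of all genes measured on both arrays was -0.12 fasted and -0.08 refed. In the supply of UDP-glucuronate, the sugar donor, 0 of 7 genes were at least 2-fold different in either genotype difference, and the median was -0.09 fasted (0.10 under quantile normalization) and -0.30 refed. Ugdh, which makes UDP-glucuronate, gave 10.8 times the 75th percentile in fasted Cont, 13.0 in fasted Drp1LiKO, 12.4 in refed Cont and 18.7 in refed Drp1LiKO, a genotype difference of 0.27 and 0.60. Slc35b1, a nucleotide transporter of the endoplasmic reticulum, was at -0.57 and -0.43.

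A list of 6 genes of hydrolysis and of the ascorbate branch, which uses glucuronate, had a median of -0.35 fasted and -0.83 refed (-0.04 and -0.68 under quantile normalization). Its 2 calls, lower in refed Drp1LiKO, were the carboxylesterases Ces1d (-1.10) and Ces2e (-1.05). Gusb, the glucuronidase of the list, named after its values were seen, was at -0.03 and -0.13. Rgn, which acts before Gulo in ascorbate synthesis, was at -0.80 and -0.99. In the list of glucuronide and bile export, 1 of 6 genes was called in the fasted state, Abcc4, an efflux pump of the sinusoidal membrane, with 0.115 times the 75th percentile in fasted Cont and 0.271 in fasted Drp1LiKO (1.24), and 0.126 and 0.222 in the refed pair (0.82). Abcc3, another sinusoidal pump for glucuronides, was at -0.50 and -0.87, and Abcb11, the bile salt pump, at -0.41 and -0.66. The export list had medians of -0.06 fasted and -0.31 refed (0.17 and -0.14 under quantile normalization).

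Among 5 organic anion uptake genes, Slco1a1 was at least 2-fold lower in refed Drp1LiKO (-1.70, with -0.88 fasted). Slco1a4, another uptake carrier, was at 0.67 ± 0.21 fasted and 0.31 ± 0.22 refed, Slco1b2 at -0.69 and -0.63 and Slco2b1 at -0.76 and -0.44, and the list median was -0.69 fasted and -0.44 refed (-0.34 and -0.33 under quantile normalization). Of 5 genes from heme to bilirubin, Hmox1, which opens the heme ring, was at 0.69 fasted and 1.02 refed, the 1 call of that list. Blvra and Blvrb, which reduce biliverdin to bilirubin, were at -0.36 and -0.10 and at -0.40 and -0.49. Alas1, which starts heme synthesis, was at -0.93 fasted and -0.04 refed. The list median was -0.36 fasted and -0.04 refed (-0.14 and 0.22 under quantile normalization).

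Of 16 regulators of UGT genes, each measured on all 4 arrays, none was at least 2-fold higher in Drp1LiKO, 2 were lower fasted (Ppara and Foxa1, a forkhead factor) and 1 was lower refed (Ppara). Foxa1 was at -1.10 ± 0.20 fasted and 0.35 ± 0.20 refed. Ppara, the nuclear receptor of fatty acids, gave 38.9 times the 75th percentile in fasted Cont, 18.6 in fasted Drp1LiKO, 34.3 in refed Cont and 13.1 in refed Drp1LiKO, which is -1.06 ± 0.20 and -1.39 ± 0.20. Nr1i2, which encodes PXR, was at -0.36 and -0.98. The list median was -0.34 fasted and -0.20 refed (-0.22 and -0.10 under quantile normalization).

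Target genes of these regulators differed in both directions. For reference, 8.06% of all genes that could be called were higher fasted and 8.05% refed, and 5.19% were lower fasted and 6.33% refed. In the NRF2 list, 5 of 12 genes were at least 2-fold higher in Drp1LiKO in each feeding state and 0 were lower, with medians of 0.94 and 0.81. Gsta1, a glutathione S-transferase, was higher by 3.97 and 3.82, Cbr3, a carbonyl reductase, by 2.68 and 2.95, and Gsta2 by 2.01 and 2.24. Gstm3 (1.22) and Abcc4 were the other fasted calls, and Srxn1 (1.72) and Hmox1 the other refed calls, with Gstm3 chosen after its value was seen. Other genes of the list, named after their values were seen, were close to 0 or lower, with Gclc at -0.00 and 0.07, Gclm at -0.28 and -0.42, and Ephx1 at 0.04 and -0.59. In the CAR and PXR list, 2 of 7 were lower fasted and 5 of 7 lower refed, with none higher, and the cytochrome P450 Cyp2b10 was at -1.35 and -2.89 and Cyp2b13 at -1.65 and -3.47. The other refed calls were Cyp3a16 (-1.69, with 0.75 fasted), Cyp3a11 (-1.83, with 0.23 fasted, chosen after its value was seen) and Cyp2b9, at least 7.59-fold lower (-0.86 fasted). The median of the CAR and PXR list was -0.35 fasted over 7 genes and -1.76 refed over the 6 measured on both arrays. The fasted median was -0.13 under quantile normalization and -0.61 with the median over a gene's probes.

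In the PPARalpha list of 10 genes, 2 were higher and 1 lower fasted, and 1 was higher and 4 lower refed. Acot3, an acyl-CoA thioesterase, was at -2.05 and -3.34, and Ehhadh, a peroxisomal enzyme, at 1.73 and 1.26, so the list held genes of both directions. Its medians were -0.01 fasted and -0.61 refed (0.36 and -0.39 under quantile normalization). Among the other calls were Pdk4 (1.24) fasted and Acot1 (-2.38) and Vnn1 (-1.63) refed, of which Pdk4 and Vnn1 were chosen after their values were seen. The AhR list had 6 genes, of which Cyp1a1 and Ahrr were not well above background on any array. Over the 3 genes measured on both arrays the median was 0.20 fasted and 0.69 refed, with Nqo1, a quinone reductase, at 0.95 and 0.81 and the cytochrome P450 Cyp1a2 at 0.20 and -0.64. Cyp1b1 was measured in fasted Drp1LiKO only, at least 1.94-fold higher than in fasted Cont, a bound under the 2-fold threshold. It was the 1 of 4 AhR list genes called higher fasted, by a log2 difference of 3.01 from a signal near background, and 0 of 3 were called refed.

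Other conjugating enzymes were read in the same way. The sulfotransferase list had 8 measured genes, which include Papss1 and Papss2, enzymes that make the sulfate donor and were named after their values were seen. In it Sult5a1 was at least 2-fold lower fasted (-1.26) and Sult1e1, the estrogen sulfotransferase, was at 0.91 fasted and 1.28 refed. Sult1c2, chosen after its value was seen, was the 1 gene of the list called lower refed (-1.05), and the list medians were -0.31 and -0.16 (-0.18 and -0.09 under quantile normalization). Of 10 other conjugation genes, Inmt, a methyltransferase, was lower in both states (-1.74 and -1.98) and Nat1 in the fasted state (-1.03), with medians of -0.34 and -0.24 (-0.11 and -0.05 under quantile normalization).

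**Figure D5:**
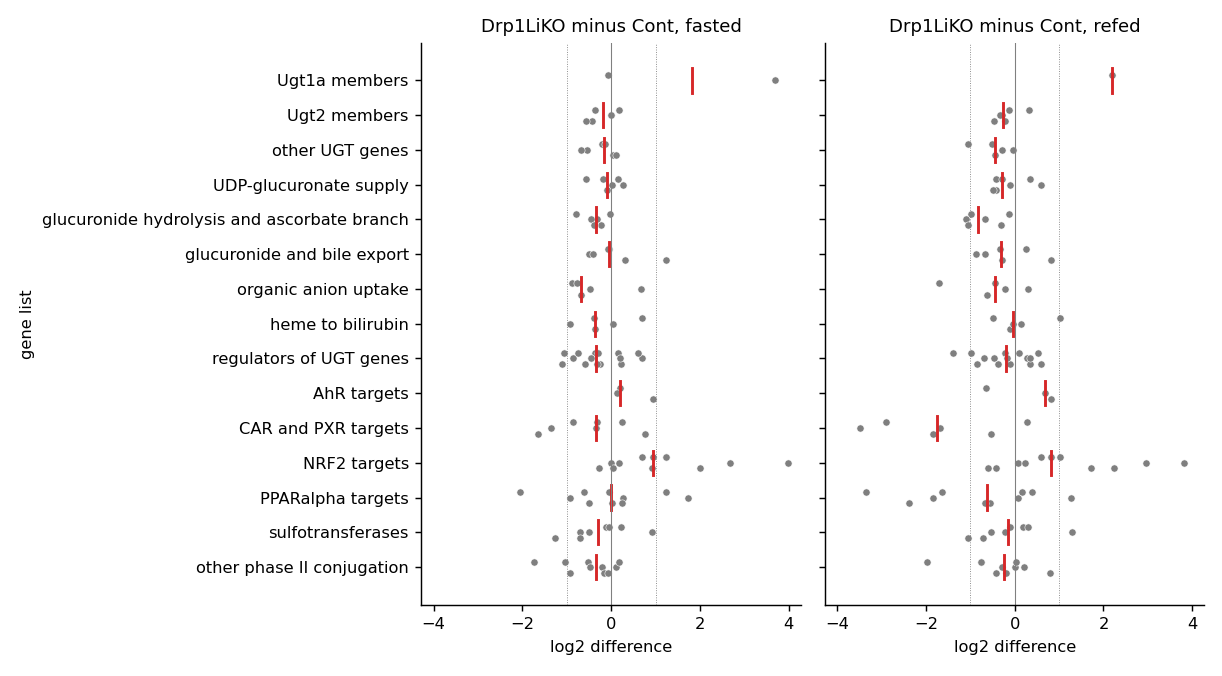
Drp1LiKO minus Cont (log2, x axes) for the genes of each list (y axis) in the fasted (left) and refed (right) state, with a grey point for each gene well above background on both arrays, a red bar at the list median over these genes and dotted lines at 2-fold. The NRF2 list has medians of 0.94 and 0.81, and the Ugt2 members have medians of -0.19 (0.09 under quantile normalization) and -0.25.

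For the feeding labels, 3 of 9 measured genes known to rise with refeeding were at least 2-fold higher on the refed Cont array and 7 of 9 on the refed Drp1LiKO array, with 0 lower. Thrsp, a gene of lipid synthesis, gave 8.86 times the 75th percentile in fasted Cont, 58.0 in refed Cont, 2.22 in fasted Drp1LiKO and 23.2 in refed Drp1LiKO. Of 11 genes known to rise with fasting, 4 were lower and 2 higher on the refed Cont array and 8 were lower on the refed Drp1LiKO array, with Igfbp1 at -1.88 and -4.41. The 2 higher on the refed Cont array were Fgf21 (1.47, with -1.77 in Drp1LiKO) and G6pc (1.38, with -0.74 in Drp1LiKO). Of all genes that could be called, 4.47% were higher and 5.83% lower on the refed Cont array. On the refed Drp1LiKO array the shares were 5.61% and 7.15%. Ugt1a10 was lower on the refed array of each genotype as well, but in Cont by less than 2 SE (-0.51 ± 0.27, or -0.10 with normexp).

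Hepatocyte markers were high on all 4 arrays, with a summed signal over 9 genes of 3089 times the 75th percentile in fasted Cont, 2168 in fasted Drp1LiKO, 3638 in refed Cont and 2777 in refed Drp1LiKO, led by Serpina1a. Their medians were -0.52 fasted and -0.45 refed in the genotype differences, below those of the Ugt2 members. Under quantile normalization they were 0.05 and -0.04, where the Ugt2 members had 0.09 and -0.08, so the refed order was then the opposite. Of the 9 markers, 1 was at least 2-fold higher in the refed state (Cps1, 1.24) and 0 were lower. The bright Ugt2 probes and the shared-end Ugt1a probe also depended on the scaling in the fasted state.

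Markers of other liver cells were read as sums too. Beside their calls, 8.06% of all genes that could be called were higher and 5.19% lower in fasted Drp1LiKO. In refed Drp1LiKO the shares were 8.05% and 6.33%. The summed signal of the 7 cholangiocyte markers, 6 of them measured on 1 array or more, was 0.614 in fasted Cont, 1.30 in fasted Drp1LiKO, 0.639 in refed Cont and 1.1 in refed Drp1LiKO, led by Spp1, with Epcam near background throughout. Of the 7, 3 were measured on both fasted arrays and 2 on both refed arrays. Sox9 (1.24) and Spp1 were at least 2-fold higher in fasted Drp1LiKO. Against a dim Cont signal Tspan8 was at least 2.91-fold higher fasted and Sox9 at least 3.18-fold higher refed, while Cftr was at least 2.21-fold lower fasted. With normexp the list median over genes that could be called went from 0.77 to 0.15 fasted and from 0.68 to 0.16 refed. The 8 macrophage markers summed to 91.3, 103, 101 and 170 in that order, led by Cd5l, with 2 of 8 at least 2-fold higher in each state, Marco at 1.65 and 1.61 and Lyz2 at 1.38 and 1.53. Stellate cell and fibroblast markers summed to 1.45, 2.97, 2.0 and 2.0, led by Col3a1, with 2 of 6 higher fasted (Col1a1 and Col3a1) and 0 of 6 refed. Neutrophil markers summed to 4.17, 2.31, 4.64 and 8.71, led by S100a9, with S100a8 (-1.04) and S100a9 (-1.11) lower fasted and S100a9 (1.04) higher refed among the 3 measured on both arrays, and Cxcr2 not well above background on any array. Lymphocyte markers summed to 23.3, 19.0, 24.2 and 17.5, led by Cd4, with 0 of 4 called and Cd8a not well above background on any array. Endothelial markers summed to 54.4, 45.6, 57.5 and 38.8, led by Clec4g, with 0 of 6 called. The part of these cells in the Ugt1a10 values was not tested.

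Gut, kidney and pancreas also express UGT genes or could be sampled with liver. Of the 6 intestinal markers, Vil1, Alpi, Cdx2 and Muc2 were not well above background on any array, and the list summed to 103, 73.9, 98.6 and 66.6 times the 75th percentile in the same order, led by Fabp2, with 0 of 2 called. Umod, Slc12a1 and Kap of kidney tubules and Cpa1, Prss1 and Pnlip of the pancreas were likewise not well above background on any array. The kidney list summed to 0.629, 0.456, 0.638 and 0.339, led by Aqp2 with 0 of 2 called, and the pancreatic list to 4.71, 6.45, 4.54 and 3.78, led by Amy2a5 with 0 of 2 called. Of the adipocyte markers, Adipoq, Plin1, Lep and Retn were not well above background on any array, and Cfd, also made in liver, was at -5.07 fasted and -6.27 refed in the genotype differences, with list sums of 4.35, 0.183, 22.0 and 0.371.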

How the data were processed

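Total liver RNA of 4 groups of mice was hybridized to 1 one-color Agilent Whole Mouse Genome array per group. The deposited scanner files give the intensity of each spot, background-subtracted and detrended by Feature Extraction (9.5.1.1 in the submitters' notes, 10.7.1.1 per the file headers). The authors' value table is intensity with the same median, 39.6, in each column, and matches a quantile normalization. Spots marked as outliers were dropped, repeated spots averaged, and log2 intensity was set against the 75th percentile of its array. A gene was read from the probe well above background on the most arrays, then with the highest mean. A call is a difference of at least 2-fold with the brighter signal well above background. Members and lists were chosen with earlier results of these data known. Named genes are all UGT genes with a probe, Dnm1l, list genes called the same way in both genotype differences, up to 4 genes a list with the largest mean absolute genotype difference, and the 5 profiles nearest to Ugt1a10. This rule and the processing choices were set before the values used here were examined, apart from 1 alternative. Genes named outside the rule are marked in the text, except the brightest gene of a marker list and genes not well above background on any array. Only refeeding over both genotypes was tested (limma 3.58.1, R 4.3.3, Benjamini-Hochberg adjusted p). Python 3.11.15 with pandas 2.3.3, scipy 1.17.1 and numpy 2.4.6 made the tables, and matplotlib 3.10.9 the plots. Gene lists covered the listed UGT members and other UGT genes, UDP-glucuronate supply, hydrolysis and ascorbate, export, uptake, heme to bilirubin, regulators, AhR, CAR and PXR, NRF2 and PPARalpha targets, sulfotransferases, other conjugation, genes raised by refeeding or fasting, and cell markers.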

Additional observations from a re-analysis of the deposited data

How the results depend on the processing

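No paired analysis was possible because each group has 1 array and the labels pair no mice. The limma fit compares refed and fasted arrays within genotype, which pairs groups and not animals. The alternatives were array median scaling, quantile normalization, normexp background correction, the authors' value table, the median over a gene's probes, a stricter filter and a 1.5-fold threshold, and for limma also no genotype term, an intensity trend and no filter.

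Genes at least 2-fold different numbered 2390 in the fasted and 2509 in the refed genotype difference, and 1693 (Cont) and 2339 (Drp1LiKO) between refed and fasted arrays. With normexp they numbered 927 (358 higher, 569 lower), 1072 (363 and 709), 726 (439 and 287) and 888 (501 and 387), where the higher and lower counts had been 1454 and 936, 1404 and 1105, 735 and 958, and 1028 and 1311, and the cause was not tested. Among genes well above background on all 4 arrays they numbered 875, 1028, 573 and 848, since fewer genes could be called. At 1.5-fold they numbered 5085, 5256, 3576 and 5942, since the threshold was lower. When a signal not well above background was replaced by the bound given for it, which was chosen after seeing the data, they numbered 1688 (779 and 909), 1808 (703 and 1105), 1180 (574 and 606) and 1695 (827 and 868).

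The limma count of 0 (4414 at an unadjusted p under 0.05) became 15 of 14447 genes with the all-array filter, 6 higher and 9 lower, with 0 of 12 UGT genes among them and a smallest UGT adjusted p of 0.0976. The cause was not tested. Without a genotype term it was 0 (1705 at an unadjusted p under 0.05), with an intensity trend 0 (5166) and without a filter 0 (3954). The difference of differences of at least 2-fold numbered 614 (270 higher, 344 lower), 329 (153 and 176) with normexp and 646 (377 and 269) with array median scaling, and the cause was not tested.

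Of 79 UGT and Dnm1l values, 79 stayed within 1 measurement SE of the stated value with array median scaling, 76 with normexp and 56 with quantile normalization, where 13 changed sign. Ugt1a10 ranged over settings from 3.05 to 3.81 fasted and from 0.60 to 2.24 refed, the lowest being medians over both of its probes, of which that at base 734 was near background on 3 arrays. Signal over background limits Ugt1a6a, Ugt2a1 and the Ugt1a10 probe at base 734.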
